A study of Gallus gallus with 2 samples.

Results

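The cells described here are embryonic chick retinal cells that carried PTF1A, DLX or HEY1 transcripts but none of the genes of horizontal and ganglion cell subtypes. A cell was a member if it had at least 1 unique molecular identifier (UMI, a tag that marks 1 captured transcript) of at least 2 of the 4 marker genes PTF1A, DLX1, DLX2 and HEY1. In a member, LHX1, TFAP2C, ISL1, POU4F2, POU4F3 and RBPMS2 were all at 0, the cone gene RBP4 was at 2 UMIs or fewer, and 8 genes of dividing cells (TOP2A, MKI67, CENPF, CDK1, TPX2, UBE2C, NUSAP1 and RRM2) summed to 1 UMI or fewer. Of 10074 cells, 291 were members, 180 of them among 4951 OTX2CRISPR cells and 111 among 5123 CTRL cells. These genes chose the cells, so their levels and the contrast with all other cells are given as a description.

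Single cells were profiled to ask what editing of OTX2 does to cells that descend from OTX2-expressing progenitors. In OTX2CRISPR, titled ko in the labels, E5 retinas were electroporated ex vivo with Cas9 and OTX2 guide 2, whereas CTRL, titled wt, received the same p18 vector with Cas9 under the CAG promoter and the guide scaffold but no guide. Both also received the OTX2ECR2::GFP reporter, were cultured for 48 h, and were sorted for GFP, so the cells are a sorted fraction and not the whole retina. Each group was 1 library of pooled retinas from embryos typed as female, with the contralateral eyes as CTRL. Editing was somatic, so OTX2CRISPR held a mixture of edited and unedited cells. The 3′ tags also count transcripts with small edits, so OTX2 UMIs do not check the edit in a cell. With 1 library per group there was no replicate and no test, and every interval below is a 95% interval that covers counting error only.

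PTF1A is a basic helix-loop-helix transcription factor that, in the mouse, directs retinal precursors towards horizontal and amacrine cells. DLX1 and DLX2 are homeobox factors known in the mouse retina from ganglion cell differentiation and from inhibitory neurons, and HEY1 is a transcriptional repressor that can respond to Notch signalling. OTX2 is the homeobox factor of photoreceptor fate, and the subtype genes of the rule are later factors. LHX1 marks 1 type of horizontal cell, TFAP2C and ISL1 another, and POU4F2, POU4F3 and RBPMS2 mark ganglion cells. The study also stained ISL1 together with POU4F proteins where it looked for ganglion cells, so ISL1 alone does not set the cell type.

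Members had a median of 2445.5 UMIs in OTX2CRISPR and 2619 UMIs in CTRL, against 2579 and 2797 UMIs in the other cells of the same libraries. Levels are UMIs summed over cells and scaled to counts per 1e6 UMIs of those cells (CPM), and rest on 465561 UMIs of OTX2CRISPR members and 305052 UMIs of CTRL members. The libraries shared 38 cell barcodes, and 2 of these belonged to a member. Genes of erythroid cells were at 0 UMIs in members of both libraries, genes of the retinal pigment epithelium summed to 8 UMIs in OTX2CRISPR members and 5 UMIs in CTRL members, and microglial genes to 1 UMI and 0 UMIs. Cells with at least 10 RBP4 UMIs, which are cone-like and should lack the marker genes, served as the background of free RNA. Among those 64 OTX2CRISPR cells (median 1701 UMIs), 0 had a PTF1A UMI, which allows a share of up to 4.69%, and among the 1196 CTRL cells (median 2144 UMIs) 1.17% did. The same cells had DLX1 in 1.56% of OTX2CRISPR and 0.669% of CTRL cells, DLX2 in 4.69% and 0.502%, and HEY1 in 3.12% and 2.59%. RBP4 itself was found in 2.22% of OTX2CRISPR members and 35.1% of CTRL members, and in 22.0% of the LHX1 cells and 29.5% of the ganglion marker cells of CTRL, which are classes described further on.

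Members were 3.64% of OTX2CRISPR cells (95% interval 3.13 to 4.20, exact Clopper-Pearson) and 2.17% of CTRL cells (1.79 to 2.60), a log2 ratio of 0.75 (0.40 to 1.10). The difference depended on the marker threshold, since with at least 3 markers the ratio was -0.18 (-0.74 to 0.38), an interval that includes 0. With at least 1 marker it was 1.31, and with RBP4 at 0 it was 1.34. At least 2 markers were found in 876 OTX2CRISPR and 312 CTRL cells, of which 296 and 142 had the subtype genes at 0, 296 and 126 also passed the RBP4 limit, and 180 and 111 also passed the limit on dividing cells. The last step removed 39.2% of 296 OTX2CRISPR cells (33.6 to 45.0) but 11.9% of 126 CTRL cells (6.82 to 18.9). Just inside the marker threshold were 128 OTX2CRISPR and 50 CTRL members with exactly 2 markers, and just outside it 382 and 124 cells with 1 marker. On the RBP4 limit sat 0 OTX2CRISPR members and 4 CTRL members, with 0 cells of either library at 3 UMIs. On the cell cycle limit sat 38 and 22 members with 1 UMI, while 9 and 4 cells with 2 UMIs fell outside.

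The members were not one kind of cell, and the kinds had different shares in the libraries. In OTX2CRISPR, 41 of 180 members had a PTF1A UMI (22.8%, 16.9 to 29.6), whereas in CTRL 76 of 111 had one (68.5%, 59.0 to 77.0), a difference of -45.7 percentage points (-56.0 to -34.0). When every cell was thinned to 1000 UMIs the shares were 18.2% and 52.7% in OTX2CRISPR and CTRL members. As a share of the whole library, PTF1A-positive members were 0.828% of OTX2CRISPR cells and 1.48% of CTRL cells. PTF1A-negative members were 2.81% (2.37 to 3.31) of OTX2CRISPR cells and 0.683% (0.476 to 0.949) of CTRL cells. The higher share of members in OTX2CRISPR therefore lay in the PTF1A-negative ones.

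**Figure D1:**
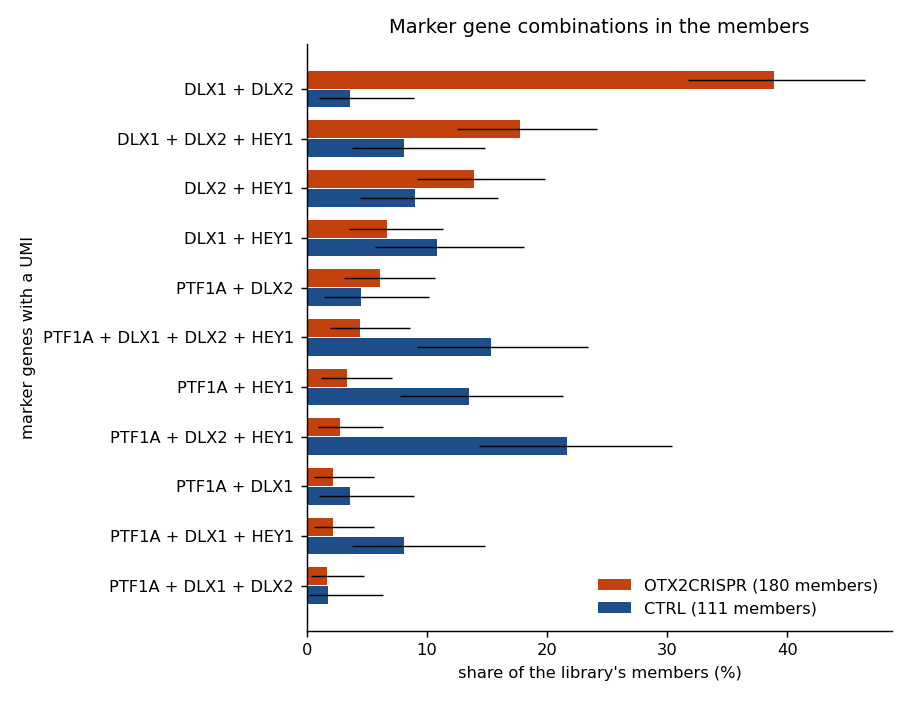
Share of members (x axis, %) with each combination of the marker genes (y axis), OTX2CRISPR bars above CTRL bars, with exact binomial 95% intervals. DLX1 with DLX2 alone made up 38.9% of OTX2CRISPR and 3.60% of CTRL members, while all 4 genes were found in 4.44% and 15.3%.

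DLX1 with DLX2 and no other marker was the most frequent combination in OTX2CRISPR, with 70 members against 4 in CTRL. PTF1A with DLX2 and HEY1 was the most frequent in CTRL, with 5 OTX2CRISPR and 24 CTRL members. DLX1, DLX2 and HEY1 together were found in 32 and 9 members, and PTF1A with HEY1 in 6 and 15. Of the PTF1A-positive members, 35 of 41 in OTX2CRISPR and 61 of 76 in CTRL also had DLX1 or DLX2, and since the rule asks for a further marker beside PTF1A, the others had HEY1 as theirs. A DLX gene was found in 174 OTX2CRISPR members (96.7%) and 96 CTRL members (86.5%).

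A PTF1A-positive member had a median of 3 PTF1A UMIs in OTX2CRISPR (highest 12) and 5 in CTRL (highest 29). The median DLX2 count over all members was 2 UMIs in OTX2CRISPR (highest 12) and 1 UMI in CTRL (highest 13), and that of HEY1 was 1 UMI (highest 16) and 2 UMIs (highest 12). DLX1 had a median of 1 UMI in each library, with 8 UMIs at most in OTX2CRISPR and 6 in CTRL. Single cells with many UMIs of a marker thus occurred in both libraries, and the libraries overlapped for every marker. Thinned to 1000 UMIs, DLX1 was found in 40.9% of OTX2CRISPR and 24.5% of CTRL members (73.9% and 51.4% unthinned), and DLX2 in 55.1% and 49.1% (85.6% and 64.0%). HEY1 ran the other way, in 30.1% of OTX2CRISPR and 57.3% of CTRL members (51.1% and 86.5%).

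**Figure D2:**
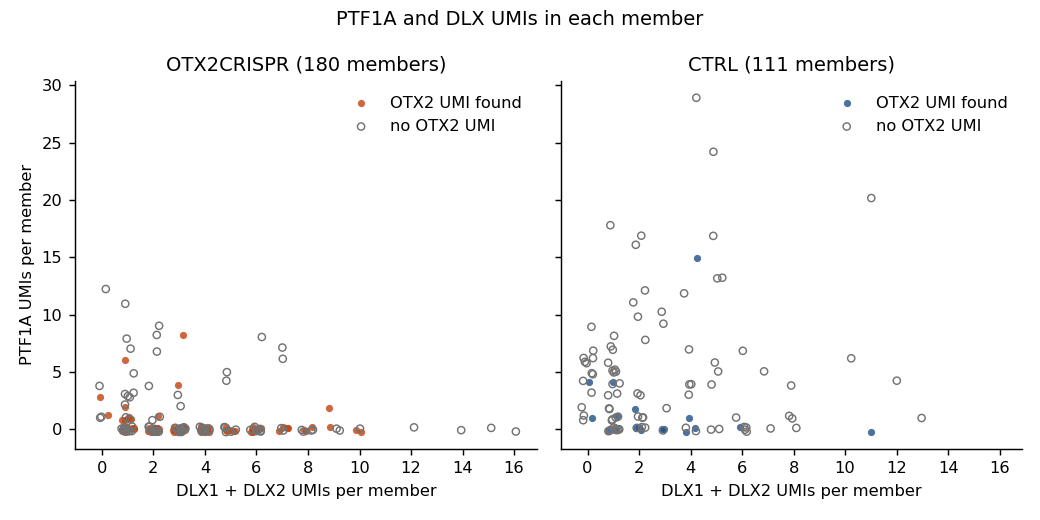
PTF1A UMIs (y axis) against the sum of DLX1 and DLX2 UMIs (x axis) in each member, OTX2CRISPR left and CTRL right, filled where an OTX2 UMI was found; points are shifted slightly to separate ties. Most OTX2CRISPR members lie on the line of 0 PTF1A UMIs, and OTX2 was found in 47.8% of OTX2CRISPR and 17.1% of CTRL members.

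As summed levels, PTF1A was at 348 CPM in OTX2CRISPR members and 1547 CPM in CTRL members, a log2 ratio of -2.15 (-2.42 to -1.89). Within PTF1A-positive members the gap was smaller, 1588 and 2282 CPM (-0.52, -0.79 to -0.26). Most of the gap thus lay in the smaller share of such members among OTX2CRISPR members. There 41 members were PTF1A-positive and 139 PTF1A-negative, against 76 and 35 in CTRL. In all other cells PTF1A went the opposite way, at 126 CPM in OTX2CRISPR and 48.2 CPM in CTRL (1.38). DLX1 was at 520 CPM in OTX2CRISPR and 272 CPM in CTRL members (0.93, 0.57 to 1.31), and DLX2 at 896 and 793 CPM (0.18, -0.06 to 0.41), an interval that includes 0. Within the kinds DLX2 had opposite directions, at -0.68 (-1.17 to -0.22) in PTF1A-positive and 0.38 (0.02 to 0.76) in PTF1A-negative members. Both DLX genes were higher in the other OTX2CRISPR cells. There DLX1 was at 94.1 CPM against 18.2 CPM in CTRL (2.37), and DLX2 at 181 against 31.7 CPM (2.51). HEY1 was at 612 and 951 CPM (-0.64, -0.88 to -0.39), against 251 and 109 CPM in the other cells (1.21).

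Against all other cells, 12 of 783 genes tested (1.53%) were at least 2-fold higher in members in each library, 4 of them the markers of the rule, and 51 of 947 genes (5.39%) were at least 2-fold lower. Among the other 8 genes, CDKN1C encodes the cyclin-dependent kinase inhibitor p57, which holds cells out of the cycle. It was at 3089 CPM in OTX2CRISPR members and 1377 CPM in the other OTX2CRISPR cells (log2 ratio 1.17, 1.09 to 1.24), and at 4314 and 726 CPM in CTRL (2.57, 2.49 to 2.65). INSM2, a zinc finger gene of the INSM family, was at 1106 CPM in members and 462 CPM in other cells of OTX2CRISPR (1.26), and at 1813 and 373 CPM in CTRL (2.28). The granin CHGB was at 724 and 337 CPM in OTX2CRISPR (1.10), and at 554 and 159 CPM in CTRL (1.80). PHLDA2, TTYH3, SLC9A3R1, DAB2IP and DYNC1I1 completed the genes that were higher in each library, with the smaller of both log2 ratios between 1.05 for DYNC1I1 and 1.48 for PHLDA2. TTYH3, a chloride channel family gene, was at 614 and 279 CPM in OTX2CRISPR and at 1092 and 134 CPM in CTRL.

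**Figure D3:**
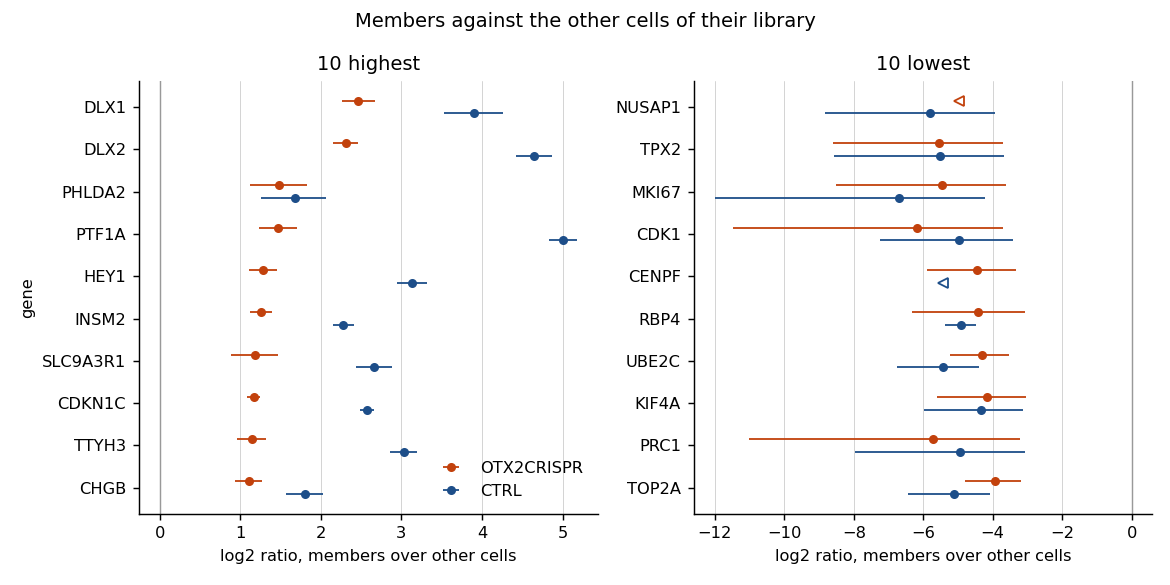
Log2 ratio of CPM in members over all other cells of the same library (x axis) for the 10 genes with the highest and the 10 with the lowest ratio (y axis), with 95% counting intervals and open triangles where a count of 0 gives only a bound. CDKN1C lies at 1.17 in OTX2CRISPR and 2.57 in CTRL, and the lowest genes are those of dividing cells and RBP4.

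The genes lower in members included those the rule limited, but also genes of division that it did not use. Of 12 further G2/M genes, 9 could be tested and all 9 were at least 2-fold lower in members of each library, among them PRC1, a spindle midzone gene with 1 UMI in OTX2CRISPR members (log2 ratio -5.71, -11.0 to -3.23) and 2 UMIs in CTRL members (-4.93, -7.98 to -3.08). KIF4A, a mitotic kinesin that was in no list, was at -4.15 and -4.34. Of 11 neurogenic progenitor genes 8 were tested, of which 3 were at least 2-fold lower in members of each library (NEUROG2, NEUROD4 and DIO3) and 1, INSM2, at least 2-fold higher. NEUROG2, a proneural factor of neurogenic progenitors, was at 389 CPM in members and 1121 CPM in other cells of OTX2CRISPR (-1.53), and at 199.97 and 874 CPM in CTRL (-2.13). The Notch ligand DLL1 was at 105 and 318 CPM in OTX2CRISPR (-1.60), and at 26.2 and 251 CPM in CTRL (-3.26). TFAP2A, a factor of horizontal and amacrine cells, was at 15.0 and 350 CPM in OTX2CRISPR (-4.54), and at 75.4 and 202 CPM in CTRL (-1.42). Low levels of division genes and of TFAP2A go with the rule, which limited 8 genes of dividing cells and removed cells with horizontal cell genes. Against other cells within the same cell cycle limit 10 genes were at least 2-fold lower in members in each library.

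Beside classes set by their own genes, PTF1A was shared with horizontal cells and the DLX genes with ganglion cells. Cells with LHX1 and TFAP2A or TFAP2B, which are HC1-like, had PTF1A at 704 CPM in OTX2CRISPR and 583 CPM in CTRL, and TFAP2A at 3596 and 3264 CPM, but DLX2 at 11.7 and 0 CPM and CDKN1C at 838 and 389 CPM. Cells with at least 2 of the ganglion genes POU4F2, POU4F3 and RBPMS2 had DLX2 at 496 and 363 CPM and HEY1 at 920 and 1113 CPM, but PTF1A at 11.1 and 0 CPM. CDKN1C in those ganglion marker cells was at 1720 and 1252 CPM, below the level of members in each library. INSM2 was at 88.3 and 53.6 CPM in LHX1 cells, 190 and 238 CPM in ganglion marker cells, and 570 and 556 CPM in the cone-like cells. In each of these classes it was below its level in members. Its levels in the TFAP2C or ISL1 cells and in OTX2 cells without a marker gene are not given here. INSM2 can therefore not be called particular to members. Dividing counterparts of members, which met every other condition, had CDKN1C at 3388 CPM in 116 OTX2CRISPR cells and 1879 CPM in 15 CTRL cells.

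**Figure D4:**
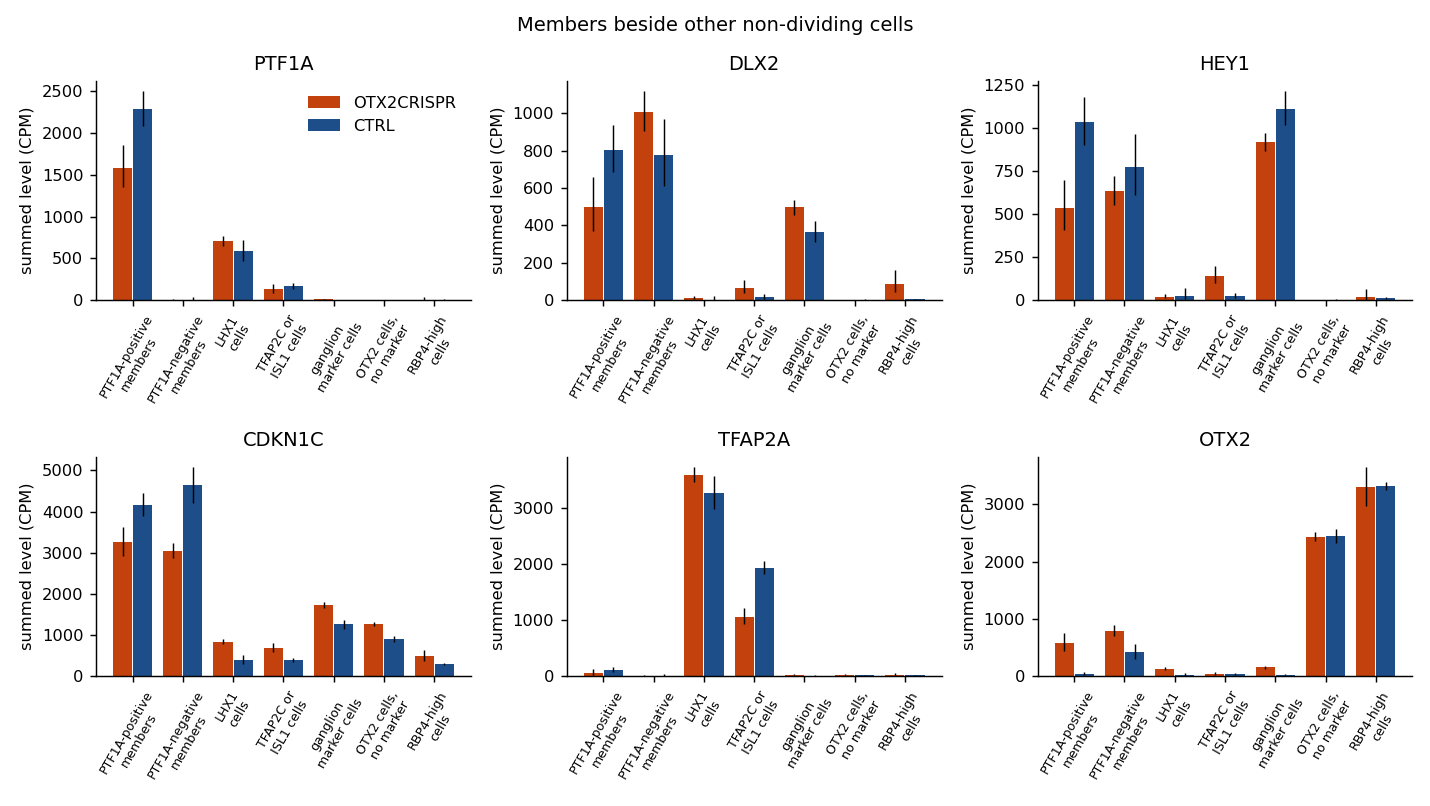
CPM (y axis, linear from 0) of PTF1A, DLX2, HEY1, CDKN1C, TFAP2A and OTX2 in PTF1A-positive and PTF1A-negative members and in 5 other classes. OTX2CRISPR bars stand left of CTRL bars, with exact Poisson 95% intervals. PTF1A, DLX2 and HEY1 helped to choose the members. The newborn OTX2 class was set by at least 2 OTX2 UMIs and no UMI of the rule's marker genes. The bars of these genes in those cells follow from the choice of cells and are a description only. CDKN1C is at 3253 and 4162 CPM in PTF1A-positive and at 3043 and 4634 CPM in PTF1A-negative members, while TFAP2A is at 111 CPM or less outside the LHX1 cells and the TFAP2C or ISL1 cells, which it helped to define.

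PTF1A-positive and PTF1A-negative members were compared in each library, and a gene was counted where it passed 2-fold the same way in both. Of 783 genes tested, 8 (1.02%) were at least 2-fold higher in PTF1A-positive members in each library, PTF1A among them, and 3 (0.383%) at least 2-fold lower. PRDM13, a zinc finger factor that acts downstream of PTF1A in the mouse, had 588 CPM in PTF1A-positive and 16.5 CPM in PTF1A-negative members of OTX2CRISPR (log2 ratio 5.15, 3.95 to 6.66), and 986 and 40.7 CPM in CTRL (4.60, 3.22 to 6.49). It had the largest ratio after PTF1A itself, with 6 UMIs over all PTF1A-negative members of OTX2CRISPR and 4 UMIs over those of CTRL. FGF19, a secreted fibroblast growth factor, was at 980 and 308 CPM in OTX2CRISPR (1.67) and at 469 and 81.5 CPM in CTRL (2.52). The ephrin receptor gene EPHB1 was at 245 and 77.0 CPM in OTX2CRISPR (1.67) and at 290 and 50.9 CPM in CTRL (2.51). HES1, a transcriptional repressor downstream of Notch, was at 314 and 151 CPM in OTX2CRISPR (1.05) and at 561 and 153 CPM in CTRL (1.88). PLXNA2, RGS3 and TTYH3 were the other genes past 2-fold in each library.

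The 3 genes lower in PTF1A-positive members in each library were ELAVL4, AGRN and E2F1. ELAVL4, an RNA-binding protein of new neurons, was at 578 CPM in PTF1A-positive and 1315 CPM in PTF1A-negative members of OTX2CRISPR (-1.19), and at 135 and 468 CPM in CTRL (-1.79). AGRN, the heparan sulphate proteoglycan agrin, was at -1.17 in each library, and the cell cycle factor E2F1 at -1.67 in OTX2CRISPR and -1.13 in CTRL. OLIG2, NEUROG2 and INSM1 passed 2-fold in CTRL but not in OTX2CRISPR. OLIG2, a basic helix-loop-helix factor of restricted progenitors, was at 392 and 679 CPM in OTX2CRISPR (-0.79) and at 121 and 519 CPM in CTRL (-2.10). NEUROG2 was at -0.88 in OTX2CRISPR and -1.60 in CTRL, and INSM1, a zinc finger factor of newborn neurons, at -0.66 and -1.03. CDKN1C and INSM2 did not separate the kinds, with log2 ratios of 0.10 (-0.08 to 0.27) and -0.15 (-0.32 to 0.01) for CDKN1C in OTX2CRISPR and CTRL, and of -0.03 and -0.01 for INSM2.

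**Figure D5:**
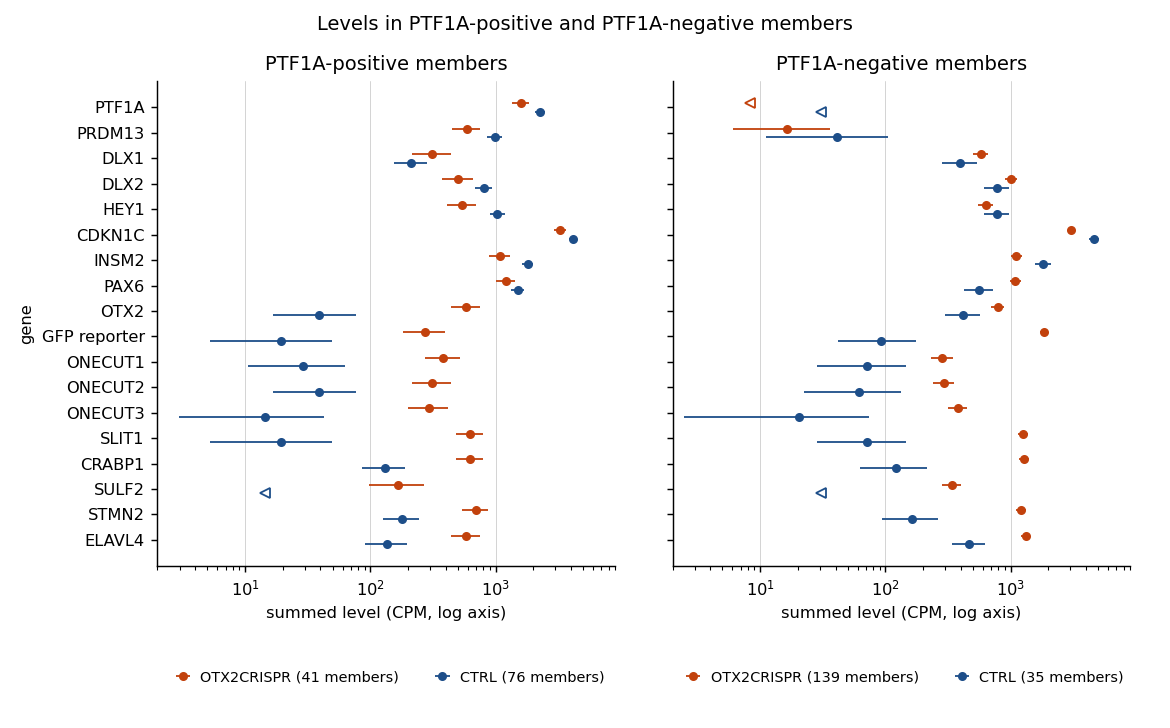
CPM (x axis, log scale) of 18 genes (y axis) in PTF1A-positive members (left) and PTF1A-negative members (right), OTX2CRISPR above CTRL for each gene. Bars are exact Poisson 95% intervals, and open triangles mark the level of 3 counts where the count was 0. PRDM13 is at 588 and 986 CPM in PTF1A-positive members and at 16.5 and 40.7 CPM in PTF1A-negative members.

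Between the libraries, 225 of 2399 genes tested (9.38%) were at least 2-fold higher in OTX2CRISPR than in CTRL members, and 51 (2.13%) at least 2-fold lower. Of the same genes in the other cells, 171 (7.13%) were at least 2-fold higher and 17 (0.709%) lower in OTX2CRISPR. A gene was counted by its ratio alone, whatever its interval. Members rest on 465561 and 305052 UMIs, against 12890547 and 14815779 UMIs in the other cells, and CTRL PTF1A-negative members on 98193 UMIs. Counting error is thus larger in members and in their kinds, and these percentages cannot be compared at equal precision. The median log2 ratio of all genes was 0.114 in members and 0.0528 in the other cells. Since the kinds had different shares in the libraries, the values are also given within each kind: 38 of 829 genes (4.58%) were higher and 21 (2.53%) lower in PTF1A-positive members, and 168 of 1420 (11.8%) higher and 38 (2.68%) lower in PTF1A-negative members.

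OTX2 transcripts were more abundant in OTX2CRISPR than in CTRL members, while the other cells showed the reverse. OTX2 was at 743 CPM in OTX2CRISPR members and 161 CPM in CTRL members (log2 ratio 2.21, 1.78 to 2.67), but at 755 and 1753 CPM in the other cells (-1.22). The other cells also differed in make-up, since cone-like cells were 1.29% of OTX2CRISPR and 23.3% of CTRL cells. Their part in the OTX2 ratio of the other cells was not tested. It was found in 86 of 180 OTX2CRISPR members and 19 of 111 CTRL members, or in 38.1% and 9.09% after thinning. Per member the median was 0 UMIs in each library, with a highest count of 14 in OTX2CRISPR and 11 in CTRL. Within PTF1A-positive members OTX2 was at 578 and 38.7 CPM (3.90, 2.83 to 5.18), and within PTF1A-negative members at 790 and 418 CPM (0.92, 0.44 to 1.43). Levels in the LHX1 cells were 122 CPM in OTX2CRISPR and 13.4 CPM in CTRL, and in ganglion marker cells 148 and 19.8 CPM. Both classes thus had the same direction as members.

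The reporter transcript was also more abundant in OTX2CRISPR members. GFP reporter RNA was at 1504 CPM in OTX2CRISPR and 42.6 CPM in CTRL members (5.14, 4.36 to 6.06), against 584 and 557 CPM in the other cells (0.07). Of the OTX2CRISPR reporter UMIs in members, 20.4% came from 1 cell with 143 UMIs. The transcript was found in 33.0% of OTX2CRISPR and 3.64% of CTRL members after thinning, although all cells had been sorted for GFP protein. Both OTX2 and the reporter were found in 54 of 180 OTX2CRISPR and 2 of 111 CTRL members, and neither in 70 (38.9%) and 86 (77.5%). Among the other cells both were found in 20.5% and 32.6%, and neither in 41.5% and 18.3%. For its CTRL clusters with sparse OTX2, the paper proposes earlier OTX2 expression, inappropriate reporter activity or accidental collection in sorting as possible sources. Which of these holds for the CTRL members was not tested.

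Genes of horizontal and amacrine cells moved in both directions. Of 14 genes of this list 9 were tested, of which 4 were at least 2-fold higher in OTX2CRISPR members and 2 at least 2-fold lower, with a median log2 ratio of 0.65; in the other cells 6 were higher, with a median of 1.41. Within PTF1A-positive members 3 could be tested and 0 passed 2-fold (median -0.31), and within PTF1A-negative members 4 of 6 were higher (median 1.71). PRDM13 was at 142 CPM in OTX2CRISPR and 682 CPM in CTRL members (-2.27, -2.69 to -1.86), and within PTF1A-positive members the ratio was -0.75 (-1.19 to -0.32). BARHL2, a homeobox factor of amacrine and ganglion subtypes in the mouse, was at 51.6 and 105 CPM (-1.02, -1.85 to -0.22). The ONECUT genes, cut-homeobox factors of horizontal, ganglion and early cone cells, were higher together. ONECUT1 was at 305 CPM in OTX2CRISPR and 42.6 CPM in CTRL members (2.84), ONECUT2 at 299 and 45.9 CPM (2.70) and ONECUT3 at 361 and 16.4 CPM (4.46). This held within each kind: ONECUT1 had log2 ratios of 3.72 in PTF1A-positive and 1.99 in PTF1A-negative members, ONECUT2 of 3.02 and 2.27, and ONECUT3, with 3 and 2 UMIs in the CTRL kinds, of 4.34 (2.66 to 6.70) and 4.22 (2.34 to 7.28). At least 1 ONECUT gene was found in 88 of 176 OTX2CRISPR members (50%) and 8 of 110 CTRL members (7.27%) after thinning. Among the other cells the shares were 49.5% and 26.1%. OTX2CRISPR members were thus near the level of their library, and CTRL members below theirs. ONECUT3 had a log2 ratio of 2.88 in the other cells.

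PROX1, a homeobox factor of horizontal cells, was at 105 and 19.7 CPM (2.42, 1.20 to 3.93). PAX6, the paired homeobox factor of the inner retina, was at 1115 CPM in OTX2CRISPR and 1197 CPM in CTRL members (-0.10, -0.30 to 0.10), with different directions within the kinds. In PTF1A-positive members PAX6 was at 1205 and 1499 CPM (-0.31, -0.63 to -0.01), and in PTF1A-negative members at 1089 and 560 CPM (0.96, 0.55 to 1.39). TFAP2A and TFAP2B, which mark differentiating horizontal cells in these libraries, had 7 and 3 UMIs in OTX2CRISPR members and 23 and 9 UMIs in CTRL members, too few to test. Either gene was found in 2.78% of OTX2CRISPR and 14.4% of CTRL members. Within PTF1A-positive members the shares were 7.32% (1.54 to 19.9) and 21.1% (12.5 to 31.9), with overlapping intervals, and within PTF1A-negative members 1.44% and 0%.

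Of 12 genes of ganglion cells that the rule did not use, 6 were tested and 5 of these were at least 2-fold higher in OTX2CRISPR members, with a median log2 ratio of 2.75; in the other cells 5 were higher, with a median of 2.06. Within PTF1A-negative members 5 could be tested and 2 were at least 2-fold higher, with a median of 0.91, and in PTF1A-positive members 0 had enough UMIs to be tested. EBF1, a helix-loop-helix factor expressed as ganglion cells differentiate, was at 144 CPM in OTX2CRISPR members and 9.83 CPM in CTRL members (3.87, 2.26 to 6.18). EBF3 had 61 UMIs in OTX2CRISPR members and 1 UMI in CTRL members (5.32, 2.79 to 10.7), and SP8, a zinc finger factor, was at 312 and 78.7 CPM (1.99, 1.36 to 2.67). An EBF gene was found in 22.2% of OTX2CRISPR and 0.909% of CTRL members after thinning, against 19.5% and 3.51% of the other cells. RPRML had 52 UMIs in OTX2CRISPR members and 0 in CTRL members, at least 3.51 higher on the log2 scale against a floor of 3 counts (lower 95% limit 3.16). ATOH7, the proneural factor needed for ganglion cells, had 5 UMIs in members of each library. EBF3 in the ganglion marker cells was at 1728 CPM in OTX2CRISPR and 2120 CPM in CTRL, far above members of either library.

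Of 16 general neuronal genes 10 were tested and 7 were at least 2-fold higher in OTX2CRISPR members, with a median of 1.70; within PTF1A-positive members 4 of 7 and within PTF1A-negative members 7 of 10 were. STMN2, a microtubule regulator of growing axons, was at 1098 CPM in OTX2CRISPR members and 174 CPM in CTRL members (2.66, 2.25 to 3.10), with 1.96 in PTF1A-positive and 2.89 in PTF1A-negative members. ELAVL4 was at 1153 and 243 CPM (2.25, 1.90 to 2.62), and MAP1B, a microtubule-associated protein, at 1641 and 695 CPM (1.24). The other cells showed the same direction, with 8 of these genes at least 2-fold higher and a median of 1.57. The transcription factor SOX11 was at -0.24 and the RNA-binding ELAVL2 at -0.73 in members, so the neuronal genes did not all move together. Transmitter genes were hardly present, with 20 UMIs over 6 genes in OTX2CRISPR members and 7 in CTRL members, 18 and 3 of these from the glycine transporter SLC6A9.

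The 5 genes by which the study described a cluster found almost only in mutant retinas were all at least 2-fold higher in OTX2CRISPR members, and in the other cells as well. The list was chosen by the study on these libraries, so its direction is not independent evidence. From the same libraries the study also reported high PAX6, OLIG2, TUBB3 and ONECUT3 in that cluster, so the same limit holds for these genes. CRABP1, a retinoic acid binding protein, was at 1132 CPM in OTX2CRISPR and 128 CPM in CTRL members (3.15, 2.68 to 3.65), SPIK2 at 1029 and 282 CPM (1.87, 1.53 to 2.22), and ERBB4, a neuregulin receptor, at 101 and 16.4 CPM (2.62). SULF2, a heparan sulphate sulfatase, had 140 UMIs in OTX2CRISPR members and 0 in CTRL members, at least 4.93 higher on the log2 scale against the floor of 3 counts (lower 95% limit 4.62), and BRINP2 had 84 and 0 UMIs, at least 4.20 higher (lower 95% limit 3.87). At least 2 of these genes were found together in 38.6% of OTX2CRISPR and 1.82% of CTRL members after thinning (61.1% and 12.6% before), against 23.8% and 1.23% of the other cells.

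Among genes that carry a name and at least 100 UMIs, the reporter and SLIT1, a secreted guidance ligand of Robo receptors, had the highest ratios. SULF2, with 0 CTRL UMIs, entered this ranking at its bound. SLIT1 was at 1115 CPM in OTX2CRISPR and 36.1 CPM in CTRL members (4.95, 4.10 to 5.96), with 5.02 in PTF1A-positive members and 4.13 in PTF1A-negative members. In the other cells it was at 883 and 171 CPM (2.37). Next came SULF2 (at least 4.93) and ONECUT3 (4.46), and CRABP1 (3.15) was also among the 10 highest. SH3BGRL3, MAB21L2, KCNH2, BTBD17 and TMEM132E completed these, with ratios between 2.90 for TMEM132E and 3.43 for SH3BGRL3. Their ratios in the other cells lay between 1.44 for SH3BGRL3 and 2.36 for TMEM132E. MAB21L2, a gene needed for eye development in the mouse, was at 236 and 29.5 CPM.

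At the low end stood LDHA and DDIT4, next to PRDM13 and PTF1A. LDHA, the glycolytic enzyme lactate dehydrogenase A, was at 949 CPM in OTX2CRISPR and 2541 CPM in CTRL members (-1.42, -1.59 to -1.25), against -0.12 in the other cells. DDIT4, an inhibitor of mTOR signalling induced by hypoxia and stress, was at 636 and 1718 CPM (-1.43, -1.64 to -1.23), against -0.15 in the other cells. Both ratios were below those of the other cells. In each library PTF1A-positive members had the higher LDHA level, at 1323 CPM against 845 CPM in PTF1A-negative members of OTX2CRISPR, and at 2765 CPM against 2067 CPM in CTRL. The gap between the libraries was also found within each kind. LDHA was at -1.06 (-1.35 to -0.79) in PTF1A-positive and -1.29 (-1.55 to -1.03) in PTF1A-negative members, and DDIT4 at -1.15 and -1.11. AHR1B, an aryl hydrocarbon receptor gene, was at 60.1 CPM in OTX2CRISPR and 256 CPM in CTRL members (-2.09, -2.77 to -1.45). YBX3, CCSER1, SLC9A3R1, CKMT1A and TACC2 lay between -1.62 and -1.41. In the other cells AHR1B was at -1.02, YBX3 at -1.65, CCSER1 at -0.95, CKMT1A at -1.03 and TACC2 at -0.75, but SLC9A3R1 at 0.03.

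Neurogenic progenitor genes and Notch genes were divided. Of 8 neurogenic genes tested out of 11, 2 were at least 2-fold higher and 0 lower, with a median of -0.18. Within PTF1A-positive members 2 of 5 were higher (median 0.90), and within PTF1A-negative members 1 of 7 was higher and 2 were lower (median -0.57). OLIG2 was at 616 CPM in OTX2CRISPR and 249 CPM in CTRL members (1.31, 0.94 to 1.69), with 1.70 in PTF1A-positive and 0.39 in PTF1A-negative members. INSM1 was at 1325 and 393 CPM (1.75, 1.47 to 2.05), and INSM2 at 1106 and 1813 CPM (-0.71, -0.89 to -0.54), so these related genes differed in direction. Of 7 Notch genes tested out of 14, 2 were higher and 1 lower. The ligand DLL1 was at 105 and 26.2 CPM (log2 interval 0.91 to 3.29), the receptor NOTCH1 at 0.19 (-0.11 to 0.50), and the target HES1 at 187 and 429 CPM (-1.20, -1.61 to -0.80). The HES1 ratio was -0.84 in PTF1A-positive members and -0.01 (-0.86 to 0.92) in PTF1A-negative members. Of 12 multipotent progenitor genes 5 were tested and 1 was at least 2-fold higher.

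The cell cycle inhibitors also differed in direction. CDKN1C was at 3089 CPM in OTX2CRISPR and 4314 CPM in CTRL members (-0.48, -0.59 to -0.37), against 1377 and 726 CPM in the other cells (0.92). CDKN1A, which encodes p21, a target of p53, was at 537 and 95.1 CPM (2.50, 1.94 to 3.11). The OTX2CRISPR member with the most UMIs, 10629, carried 72 of the CDKN1A UMIs, and without it the level was 391 CPM (2.04, 1.47 to 2.66). In PTF1A-positive members that cell held 73.5% of the CDKN1A UMIs, and the ratio was 4.05 with it and 2.29 without it. The same cell had 694 of the 785 UMIs of the heat shock gene HSPB9 in OTX2CRISPR members. HSPB9 was at 1686 CPM in OTX2CRISPR and 816 CPM in CTRL members (1.05) with it. Without it the levels were 200.03 and 816 CPM (-2.03, -2.39 to -1.68), with no CTRL member left out. The HSPB9 ratio did not reverse when the member with the most HSPB9 UMIs was left out of each library, so it depended on single cells. The HSPA8 UMIs of the OTX2CRISPR cell moved that chaperone in the same way, 763 and 485 CPM (0.65) with the cell and 477 and 485 CPM (-0.02) without it. S phase genes summed to 57 UMIs in OTX2CRISPR members and 14 in CTRL members over 12 genes, or 122 and 45.9 CPM. The mitochondrial ribosomal RNAs had ratios of -0.57 for 12S and -0.35 for 16S, and of 3 genes tested from a list of dissociation stress, 1 was at least 2-fold higher. Their part in the differences between the libraries was not tested.

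PTF1A-negative members with and without an OTX2 UMI were set side by side after their values had been seen, as a description. In OTX2CRISPR 73 had OTX2 and 66 did not (median 2696 and 2499.5 UMIs), and in CTRL 12 had it and 23 did not. NEUROG2 was at 612 CPM with OTX2 and 209 CPM without it in OTX2CRISPR (1.55, 0.99 to 2.14), and at 883 and 93.4 CPM in CTRL (3.24, 1.95 to 4.80). OLIG2 was at 812 and 516 CPM in OTX2CRISPR (0.65) and at 1148 and 187 CPM in CTRL (2.62). These progenitor genes were thus higher beside OTX2 in both libraries. In OTX2CRISPR, HEY1 was at 354 CPM with OTX2 and 977 CPM without it (-1.47, -1.89 to -1.05), LFNG, a glycosyltransferase that modifies Notch, at 568 and 1236 CPM (-1.12, -1.47 to -0.78), and PAX6 at 896 and 1328 CPM (-0.57). ONECUT3 was at 528 and 197 CPM (1.42), and the reporter at 2868 and 590 CPM (2.28, 1.97 to 2.61). In CTRL PAX6 was at -1.25 (-2.40 to -0.24), HEY1 at -0.77 (-1.62 to 0.02) and LFNG at -0.63 (-1.33 to 0.03), the last 2 with intervals that include 0. ONECUT3 had 1 UMI with OTX2 and 1 UMI without it there, and the reporter 3 and 6 UMIs (-0.08, -2.71 to 2.15). The PTF1A-negative members of OTX2CRISPR thus varied among themselves, with higher NEUROG2 and ONECUT3 and lower HEY1 and LFNG in those with OTX2. In CTRL NEUROG2, HEY1 and LFNG had the same directions, from fewer cells. HEY1 is a gene of the rule, so a PTF1A-negative member without it had to carry both DLX1 and DLX2.

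The share of cells with these markers that also had a subtype gene differed between the libraries. Among cells that met every other condition, 517 of 697 OTX2CRISPR cells (74.2%, 70.8 to 77.4) and 149 of 260 CTRL cells (57.3%, 51.0 to 63.4) had at least 1 of the 6 subtype genes. POU4F2, a POU factor of ganglion cells, was found in 23.0% of OTX2CRISPR (19.9 to 26.3) and 8.85% of CTRL cells (5.69 to 13.0), and the related POU4F3 in 53.9% and 37.3%. RBPMS2 was close in both, at 28.8% and 29.6%. LHX1 was found in 6.89% and 2.69%, while TFAP2C was found in 2.15% and 8.85% and ISL1 in 18.5% and 24.6%. These shares are of the 697 and 260 cells, members included, and those of POU4F2, POU4F3 and LHX1 were higher and that of TFAP2C lower in OTX2CRISPR. The whole libraries differed in the same directions. Ganglion marker cells were 7.07% of OTX2CRISPR and 2.05% of CTRL cells, LHX1 cells 6.87% and 1.15%, and TFAP2C or ISL1 cells 1.62% and 3.73%. In all cells but members the 6 subtype genes summed to 513 and 200 CPM. The differences are thus not particular to cells with these markers.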

How the data were processed

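Retinal cells of 1 OTX2CRISPR and 1 CTRL library were analysed from the UMI count matrices deposited by the authors, who aligned droplet reads to GRCg6a with Cell Ranger 3.0.2, with no normalization. The columns of the deposited matrices are cells with a count per gene (23967 genes). Cells with 200 to 3200 detected genes were kept (4951 of 4953 OTX2CRISPR cells with 13366081 UMIs before the filter, median 2570 per kept cell; 5123 of 5128 CTRL cells with 15177210 UMIs, median 2789). No doublet caller was run, and the top 5% of cells by UMIs were left out as an alternative. The members, gene lists and tests were chosen with earlier results of these data known.

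UMIs were summed over members, over each kind and over other cells, and expressed as CPM with exact Poisson intervals. Ratios have conditional binomial intervals and shares have Clopper-Pearson intervals, all at 95%. Genes with at least 50 UMIs were tested against a 2-fold limit and those past it are counted, without p-values. A floor of 3 counts bounded a count of 0. For shares at equal depth, 1000 UMIs were drawn from every cell, and 4 OTX2CRISPR and 1 CTRL members were too shallow for it. The text names the rule's genes, list genes, and for each comparison the 10 genes with the highest and the 10 with the lowest ratio (at least 100 UMIs between libraries). Genes with only an identifier are counted but not named. Values in simulated counts for 2399 genes, 200 of them changed, had the right direction in 100% of the changed genes, and 96.0% of the intervals held the true ratio. The simulated counts were Poisson draws with no variation between cells. They therefore check the code for counting error only, and not how well the intervals hold where 1 cell carries many UMIs of a gene. Python 3.11.15, numpy 2.4.6, scipy 1.17.1, pandas 2.3.3 and matplotlib 3.10.9 were used.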

Additional observations from a re-analysis of the deposited data

Results flagged for a closer look

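For 3 genes the members and the other cells differed at least 2-fold between libraries in opposite directions. The difference between members and other cells was not tested, since there is 1 library per group. OTX2 had a log2 ratio of OTX2CRISPR over CTRL of 2.21 in members and -1.22 in the other cells, of which far more were cone-like in CTRL. PTF1A, which the rule used, was at -2.15 in members and 1.38 in the other cells. HSPB9 was at 1.05 in members and -1.26 in the other cells. It was at -2.03 without the OTX2CRISPR member that held most of its UMIs there, with no CTRL member left out. With the top HSPB9 member of each library left out it did not reverse, so its ratio in members rested on single cells.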

How the results depend on the processing

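The share of members, OTX2CRISPR over CTRL, had a log2 ratio of 0.75, and 1.31 with at least 1 marker, 1.34 with RBP4 at 0, 1.28 without the cell cycle limit, 1.47 without the limit on subtype genes and -0.18 with at least 3 markers. The difference in PTF1A-positive shares, -45.7 percentage points, was -56.9 with HEY1 left out of the markers and -28.8 without the limit on subtype genes. Counts moved with the number of genes that could be tested. Genes at least 2-fold higher in OTX2CRISPR members numbered 225, and 66 after thinning, 37 with at least 3 markers, 40 with at least 200 UMIs and 608 with at least 20 UMIs. Genes at least 2-fold lower numbered 51, and 19, 11, 8 and 174 under the same settings. With the median ratio set to 0 there were 189 higher and 75 lower genes. For members over other cells the 12 higher genes were 5 with at least 200 UMIs, and the 51 lower genes were 14 after thinning, 10 with at least 200 UMIs, 10 against other cells within the cell cycle limit and 16 with at least 3 markers. HSPB9 reversed to -2.21 after thinning and to -1.73 with cell cycle UMIs at 0. Of the other values followed for 33 genes, 221 moved by less than their counting interval and 41 by more, and the cause was not tested. Leaving out the member with the most UMIs of each gene was added after seeing the data. No paired analysis was possible because each group is 1 library. Depth limited genes with few UMIs in members, and with 1 library per group differences between the pools of retinas and the effect of the guide cannot be told apart.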
